A study of Patiria miniata with 16 samples.

Results

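Of the 27818 genes counted in whole embryos and larvae of the bat sea star Patiria miniata, 6 are described here. The annotation names 5 of them as enzymes that cut proteins, carbohydrates or lipids, grouped here as digestive, and 1 as a fatty acid-binding protein. They are LOC119740142 (aqualysin-1-like), LOC119730943 (carboxypeptidase B-like), LOC119742045 (lactase-phlorizin hydrolase-like), LOC119725945 (alpha-amylase 4-like), LOC119740278 (pancreatic lipase-related protein 2-like) and LOC119732604 (fatty acid-binding protein 2, liver-like). The genes were taken by name, and the names were picked with earlier results of these same counts known. Their levels and differences below are therefore a description and carry no p-value. All 6 passed the filter on low counts. The 2 proteases and the lipase had over 24 counts in a library only in day 4 controls, so they passed through the group in which they were high.

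The embryos were wild type and were raised in sea water with or without BAPN (beta-aminopropionitrile), a small molecule that blocks the lysyl oxidase enzymes which cross-link collagen. There were 8 groups of 2 libraries. In 4 of them embryos stayed in BAPN until they were collected: from the hatched blastula stage to day 2, from the gastrula stage to day 3, from hatched blastula to day 4, and from gastrula to day 4. Another treated group, here called recovery, received BAPN from hatched blastula to day 2, was then freed of it and is labelled day 4. The other 3 groups were raised without BAPN and collected on day 2, day 3 or day 4. Each treated group holds 1 library at 1.2 mM and 1 at 0.8 mM BAPN, so the spread between its libraries includes any effect of dose. The group treated from gastrula to day 4 and the recovery group have no control labelled as their own, and both were set against the day 4 controls. Every library is polyadenylated RNA of at least 200 whole embryos, so fewer gut cells and less RNA per gut cell cannot be told apart. No label states if the libraries within a group were separate cultures.

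A sea star larva feeds on algae through a tube of mouth, esophagus, stomach and intestine, and it starts to feed once this gut is open and divided into its regions. Food is broken down by secreted enzymes and by enzymes on the gut surface: proteases cut proteins, amylases and glycosidases cut starch and sugars, and lipases release fatty acids. Fatty acid-binding proteins then carry these lipids inside the absorbing cells. The names used here end in "-like" because the annotation transferred them by similarity, and where in the larva each of these 6 genes is expressed was not measured.

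Total counts ran from 9945801 to 14383817 per library. Levels are given as CPM, counts scaled to a common total after TMM normalization, and 3 counts over both libraries of a group correspond to 0.0957 to 0.146 CPM. Genes of ribosomal RNA took 0.32% to 0.98% of the counts in 13 libraries, but 2.02% and 1.34% in recovery and 3.2% in replicate 2 of the day 4 controls. Their part in the day 4 comparisons was not tested.

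In untreated larvae the 6 genes came up at different times. Summed over the 6, CPM was 26.8 and 15.7 in day 2 controls, 79.7 and 84.6 in day 3 controls, and 586 and 721 in day 4 controls. All 6 genes were higher in both day 4 controls than in both day 3 controls, while the same was true of 33.4% of all 17519 genes tested (31% were lower in both). Between day 2 and day 3, 5 of the 6 were higher in both day 3 controls, against 34% of all genes (26% were lower in both), and the libraries of the lipase overlapped. Alpha-amylase 4-like, lactase-phlorizin hydrolase-like and fatty acid-binding protein 2-like were read in both day 2 controls, the last at only 1.43 and 1.22 CPM. The 2 proteases and the lipase had at most 24 counts in any control library before day 4. Corrected for transcript length, aqualysin-1-like was the highest in day 4 controls at 138 and 178 CPM per kb, and its range overlapped that of fatty acid-binding protein 2-like at 107 and 145 CPM per kb. Next came lactase-phlorizin hydrolase-like at 69.2 and 74.8 CPM per kb and alpha-amylase 4-like at 34.7 and 45.1 CPM per kb. Pancreatic lipase-related protein 2-like, at 16.9 CPM per kb in each library, and carboxypeptidase B-like, at 12.3 and 17.7 CPM per kb, did not differ beyond their spread. On this scale aqualysin-1-like stood at place 300 of the 27818 genes in day 4 controls and carboxypeptidase B-like at place 3760.

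**Figure D1:**
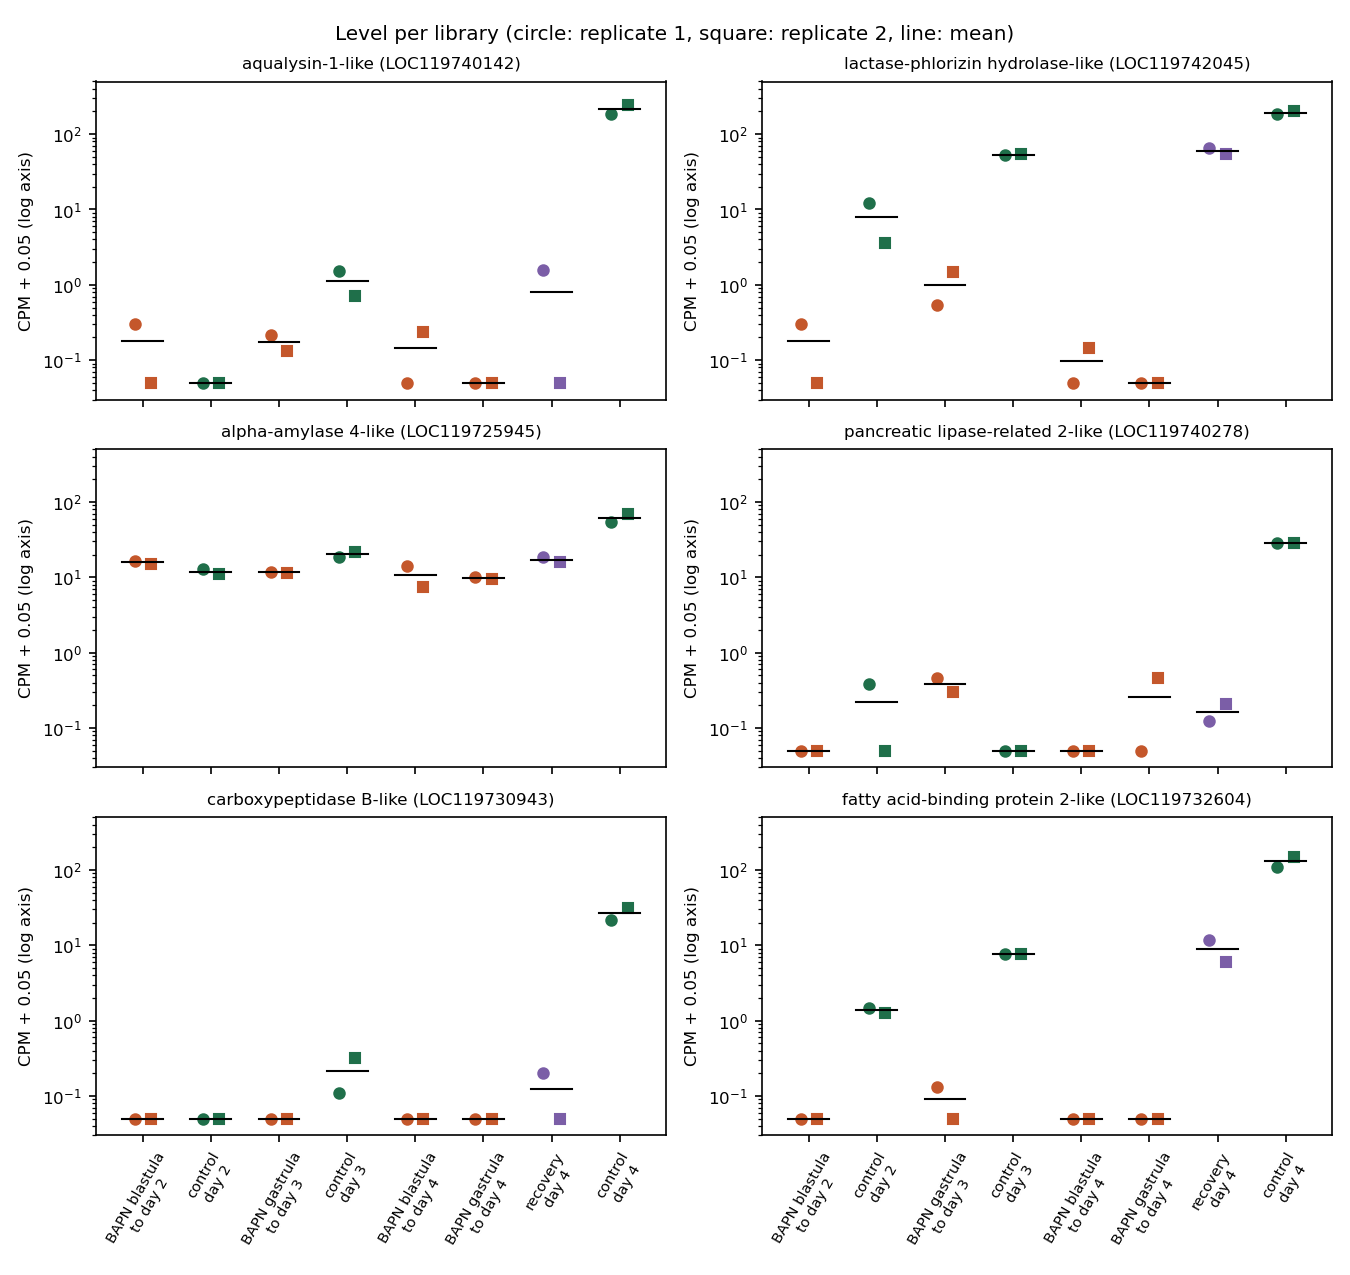
Level of each of the 6 genes in every library, as CPM plus 0.05 on a log axis, with replicate 1 as a circle, replicate 2 as a square and the group mean as a line. All 6 genes are highest in the day 4 controls, 5 of them are at or near 0 in the groups kept in BAPN to day 4, and alpha-amylase 4-like stays between 7.43 and 16.5 CPM in every library collected in BAPN.

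The first protease gene, aqualysin-1-like, lies on scaffold NW_024037071.1 at 7463816 to 7470024, plus strand (build Pmin_3.0). Its name states no role in digestion. Its product carries a subtilase domain, the fold of a large family of serine proteases that cut within protein chains. It had 1.5 and 0 CPM in the recovery libraries, no count in either library treated from gastrula to day 4, and 0 and 0.188 CPM in those treated from blastula to day 4, against 186 and 241 CPM in day 4 controls. The gene was thus close to silent in every treated library of day 4, and the 20 counts of the recovery group all came from replicate 1, the 0.8 mM library. With 2 counts after blastula-to-day-4 treatment and 5088 in day 4 controls, its level was 2190-fold lower (95% counting interval 606 to 18100). The fitted log2 difference was -10.96, or -10.06 without treated replicate 1; replicate 2 held both counts. After gastrula-to-day-4 treatment it was at least 1640-fold lower, taking 3 counts over the group as the limit. In recovery it was lower by a log2 difference of -8.11 ± 0.69 (SE, n = 2 each), or -7.13 without replicate 2; without replicate 1 the group had no count. At day 3 it had 0.165 and 0.0836 CPM after treatment from gastrula and 1.46 and 0.671 CPM in controls, which is 8.71-fold lower (counting interval 2.74 to 44.3), or a fitted log2 difference of -3.01 that was -2.34 without control replicate 1. Day 2 controls had no count, and the 3 counts of the libraries treated to day 2 all fell in 1 of them. Between day 3 and day 4 the controls differed by 7.62 ± 0.66 on the log2 scale, or 8.28 without day 3 control replicate 1.

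Carboxypeptidase B-like lies on scaffold NW_024037061.1 at 13418004 to 13424990, plus strand. Enzymes of this family remove amino acids one by one from the end of a protein chain, and the product has both the zinc carboxypeptidase domain and the activation peptide of a digestive precursor. Reads of it were counted in 3 of the 8 groups. It had 0.15 and 0 CPM in recovery, no count in the 4 libraries kept in BAPN to day 4, and 21.6 and 31.1 CPM in day 4 controls. That put it at least 180-fold lower after blastula-to-day-4 treatment and at least 202-fold lower after gastrula-to-day-4 treatment. In recovery, with 2 counts against 627 in day 4 controls, it was 343-fold lower (counting interval 94.5 to 2840). The fitted log2 difference was -8.25, or -7.34 without recovery replicate 2; without replicate 1 the group had no count. Earlier it was barely seen: 5 counts in day 3 controls, and none in the other groups of day 2 and day 3. Between day 3 and day 4 the controls differed by 7.27 ± 0.91 on the log2 scale, or by 6.55 and 8.51 without day 3 control replicates 1 and 2.

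Among the carbohydrate-digesting genes, lactase-phlorizin hydrolase-like lies on scaffold NW_024037072.1 at 25642855 to 25648413, minus strand. In mammals the enzyme of this name splits milk sugar at the gut surface; the sea star product has a glycosyl hydrolase family 1 domain. At day 4 it had 0 and 0.094 CPM after treatment from blastula, no count after treatment from gastrula, and 65.4 and 55.2 CPM in recovery, against 186 and 201 CPM in day 4 controls. Recovery libraries thus sat far above both groups kept in BAPN and below both controls, with no overlap. The level was 3980-fold lower after blastula-to-day-4 treatment (counting interval 713 to 157000, from 1 count in replicate 2; the fitted log2 difference was -11.68, or -10.85 without replicate 1) and at least 1490-fold lower after gastrula-to-day-4 treatment. Recovery differed from day 4 controls by -1.68 ± 0.37 on the log2 scale, and was 1240-fold above blastula-to-day-4 treatment (counting interval 222 to 49100; fitted log2 difference 10, or 9.17 without blastula-to-day-4 replicate 1). At day 3 it had 0.495 and 1.42 CPM after treatment from gastrula and 52.1 and 54.2 CPM in controls, a log2 difference of -5.78 ± 0.54, or -6.72 without treated replicate 2. At day 2 it had 0.255 and 0 CPM after treatment from blastula and 12.3 and 3.58 CPM in controls, 59-fold lower (counting interval 19.9 to 289). The fitted log2 difference there was -5.76, or -4.6 and -6.37 without control replicates 1 and 2 and -4.96 without treated replicate 2; treated replicate 1 held all 3 treated counts. It was therefore lower in treated embryos on each of the 3 days, without overlap.

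Alpha-amylase 4-like lies on scaffold NW_024037057.1 at 17133852 to 17138805, minus strand. Amylases cut starch, the storage carbohydrate of many algae, into short sugars. It was the 1 gene of the 6 that was read in every library. At day 4 it had 14 and 7.43 CPM after treatment from blastula, 10.2 and 9.49 CPM after treatment from gastrula, and 18.5 and 15.9 CPM in recovery, against 53.8 and 70 CPM in day 4 controls. The log2 differences from day 4 controls were -2.53 ± 0.27, -2.65 ± 0.27 and -1.85 ± 0.26. At day 3 it had 11.8 and 11.3 CPM after treatment from gastrula and 18.6 and 21.7 CPM in controls, a log2 difference of -0.8 ± 0.26. At day 2 the order was the other way round, with 16.5 and 15.1 CPM after treatment from blastula and 12.7 and 10.9 CPM in controls, a log2 difference of 0.42 ± 0.26. Every library collected in BAPN, whatever its day, lay between 7.43 and 16.5 CPM, a range that includes the day 2 controls.

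Pancreatic lipase-related protein 2-like lies on scaffold NW_024037072.1 at 29166604 to 29172815, plus strand. Its product has the lipase domain shared by the pancreatic lipases of vertebrates, which release fatty acids from dietary fat. Day 4 controls had 28.6 and 28.5 CPM, the closest pair among the 6 genes. Against these the gene had no count after treatment from blastula to day 4, 0 and 0.416 CPM after treatment from gastrula, and 0.075 and 0.156 CPM in recovery. It was at least 196-fold lower after blastula-to-day-4 treatment. After gastrula-to-day-4 treatment the log2 difference was -6.99 ± 0.93, from 5 counts that all fell in replicate 2, the 0.8 mM library; it was -6.07 without replicate 1. In recovery it was 249-fold lower (counting interval 84.7 to 1210). At day 3 it was the 1 exception among the 6 genes, with 0.412 and 0.251 CPM after treatment from gastrula and no count in controls, at least 3.47-fold higher from 8 counts in all. At day 2 it had no count in treated libraries and 4 counts in 1 of the controls.

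Fatty acid-binding protein 2-like lies on scaffold NW_024037063.1 at 6089463 to 6094711, plus strand, and its product has the domain of the cytosolic fatty acid-binding proteins. It had no count in any of the 4 libraries kept in BAPN to day 4 and 11.6 and 5.86 CPM in recovery, against 110 and 149 CPM in day 4 controls. The level was at least 883-fold lower after treatment from blastula and at least 990-fold lower after treatment from gastrula. Recovery differed from day 4 controls by -3.88 ± 0.32 on the log2 scale and was at least 60.3-fold above blastula-to-day-4 treatment. At day 3 it had 0.0825 and 0 CPM after treatment from gastrula and 7.48 and 7.71 CPM in controls, 183-fold lower (counting interval 32.5 to 7250; fitted log2 difference -7.2, or -6.36 without treated replicate 2). At day 2 it had no count after treatment from blastula and 1.43 and 1.22 CPM in controls, at least 9.62-fold lower. Like lactase-phlorizin hydrolase-like, it was lower in treated embryos than in their controls on each of the 3 days, without overlap.

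Set beside all genes tested, the 6 stood as follows. In both groups kept in BAPN to day 4, all 6 were lower in both treated libraries than in both day 4 controls, against 41.5% of all genes after blastula-to-day-4 treatment and 40.3% after gastrula-to-day-4 treatment. Of all genes, 35.4% and 35% were higher in these comparisons. After gastrula-to-day-3 treatment 5 were lower, against 37.7% of all genes, and 1 was higher, against 34.8%. After blastula-to-day-2 treatment 2 were lower and 1 was higher, against 32% of all genes each way, and 3 overlapped. In recovery all 6 were lower than in day 4 controls, against 33.2% of all genes (29.4% were higher), and 4 were higher than after blastula-to-day-4 treatment, against 40.1% (34% were lower). These shares were known when the genes were picked and support nothing on their own. The 3 day 4 comparisons also use the same pair of controls. Summed CPM of the 6 at day 4 was 14 and 7.71 after treatment from blastula, 10.2 and 9.91 after treatment from gastrula, and 97.2 and 77.1 in recovery, against 586 and 721 in day 4 controls. Alpha-amylase 4-like alone made up nearly all of the sums in the groups kept in BAPN.

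The 6 genes split in the level they had in recovery. As a percent of the day 4 control level, lactase-phlorizin hydrolase-like stood at 31.2% and alpha-amylase 4-like at 27.9% in recovery, and fatty acid-binding protein 2-like at 6.83%. The other 3 stayed under 1%: pancreatic lipase-related protein 2-like at 0.402%, aqualysin-1-like at 0.359% and carboxypeptidase B-like at 0.292%. Day 3 controls showed the same division on the same scale, with 27.5% for lactase-phlorizin hydrolase-like, 32.6% for alpha-amylase 4-like and 5.89% for fatty acid-binding protein 2-like. They had 0.509% for aqualysin-1-like, 0.608% for carboxypeptidase B-like and no count for the lipase, which allows up to 0.335%. Both sets of percentages are divided by the same day 4 controls, and the difference between recovery and day 3 controls was not tested. Alpha-amylase 4-like was already at 25.7% after blastula-to-day-2 treatment, the window that came before recovery. Its libraries there, at 16.5 and 15.1 CPM, overlapped those of recovery, at 18.5 and 15.9 CPM. In the same treated group lactase-phlorizin hydrolase-like was at 0.0717% and fatty acid-binding protein 2-like had no count.

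**Figure D2:**
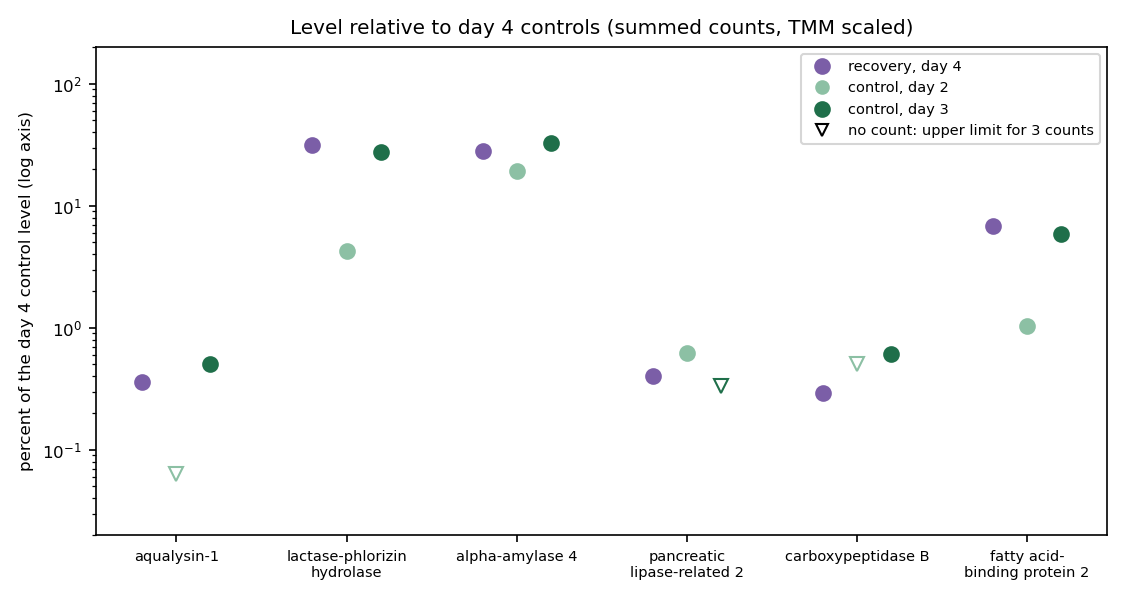
Level of each gene in recovery, day 2 controls and day 3 controls, as a percent of its level in day 4 controls on a log axis, from counts summed over 2 libraries; open triangles give the upper limit where no read was counted. Recovery lies near day 3 controls for lactase-phlorizin hydrolase-like (31.2% and 27.5%), alpha-amylase 4-like (27.9% and 32.6%) and fatty acid-binding protein 2-like (6.83% and 5.89%), and under 1% for the other 3 genes. Alpha-amylase 4-like was already at 25.7% after blastula-to-day-2 treatment, which is not drawn.

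Dose was tested within groups over the 10 treated libraries, since the choice of genes named no dose. None of the 6 was called by edgeR at an adjusted p under 0.05, and 0 of the 6 had an unadjusted p under 0.05; DESeq2 called 0 as well. Of all genes tested, 0.0228% were called. The most precise of these estimates was that of alpha-amylase 4-like, with a log2 difference of 0.18 ± 0.2 between 1.2 mM and 0.8 mM (adjusted p = 0.94, edgeR) and higher values at 1.2 mM in 4 of 5 pairs. Lactase-phlorizin hydrolase-like differed by -0.45 ± 0.4 (adjusted p = 0.91, edgeR) and was higher at 1.2 mM in 1 of 5 pairs. For the other 4 genes the SE was 1.17 or more, since most treated libraries had few or no counts, and a dose effect of several-fold could not be detected there.

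Several of the 6 belong to families of genes with the same product name, whose reads can be shared where copies are alike; without sequences their likeness was not measured. Aqualysin-1-like has 23 other genes of that name, of which 9 passed the filter, and LOC119740142 took 40.4% of the family's CPM in day 4 controls. Carboxypeptidase B-like has 9 others, 8 of which passed, and LOC119730943 took 17.9%. There are 5 other genes named pancreatic lipase-related protein 2-like, 4 of which passed, and LOC119740278 took 70.9%. Among alpha-amylases there are 4 others, 1 of which passed, and LOC119725945 took 84.7%. Lactase-phlorizin hydrolase-like has 1 other, with LOC119742045 at 31.9%, and the 1 other gene named fatty acid-binding protein 2, liver-like did not pass. Copies close to each other on a scaffold are found for the lipase, whose copies LOC119741806 and LOC119741804 lie 855 and 12423 bases away, and for carboxypeptidase B-like, with LOC119730161 and LOC119730948 at 2618 and 16945 bases. No gene within 20000 bases overlapped any of the 6.

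The second lactase-phlorizin hydrolase-like gene, LOC119741317, lies 2092 bases from LOC119742045 on the opposite strand. At day 4 it had 2.52 and 2.91 CPM after treatment from blastula, 1.54 and 8.66 CPM after treatment from gastrula, and 143 and 124 CPM in recovery, against 385 and 445 CPM in day 4 controls. Its log2 difference after blastula-to-day-4 treatment was -7.25 ± 0.54 (adjusted p = 5.4e-07, edgeR). In both genes of the pair, recovery lay between the groups kept in BAPN and the day 4 controls. In recovery LOC119741317 differed from day 4 controls by -1.63 ± 0.38 (adjusted p = 0.014, edgeR), a call lost without day 4 control replicate 2 and without either recovery library.

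Copies of aqualysin-1-like did not all behave alike after blastula-to-day-4 treatment. LOC119740131 averaged 2.97 ± 0.0788 CPM after treatment and 169 ± 20.8 CPM in day 4 controls (SD, n = 2 each), a log2 difference of -5.82 ± 0.45 (adjusted p = 3.6e-08, edgeR). LOC119726584 averaged 0.235 ± 0.332 CPM after treatment and 64.3 ± 11.4 CPM in controls, and LOC119726585 averaged 0.188 ± 0.266 and 59.5 ± 6.77 CPM; both fell, with adjusted p-values of 2.2e-09 and 1.2e-06 by edgeR. Their log2 differences were -7.99 and -8.19, or -7.05 and -7.25 without treated replicate 1; replicate 2 held all of their treated counts. LOC119739900 was lower, at 5.54 ± 0.275 CPM after treatment and 16.2 ± 2 CPM in controls. LOC119741052 and LOC119741051 overlapped between the groups, at 1.87 ± 0.939 and 1.39 ± 0.963 CPM after treatment and 2.23 ± 0.723 and 1.25 ± 0.315 CPM in controls. LOC119740019 ran the other way: it had no count in day 4 controls and averaged 0.605 ± 0.856 CPM after treatment from blastula. After gastrula-to-day-4 treatment it averaged 2 CPM, a rise called by edgeR but not by DESeq2. The other alpha-amylase, LOC119736997, had no count after treatment and 10.9 ± 2.42 CPM in day 4 controls, at least 74.3-fold lower. The lipase copy LOC119742785 was higher after treatment, at 2.67 ± 0.211 CPM against 1.38 ± 0.222 CPM in day 4 controls.

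The carboxypeptidase B-like family held genes that were higher in day 4 controls and genes that were higher after blastula-to-day-4 treatment. LOC119729929 belonged to neither kind, at 0.282 ± 0.399 CPM after this treatment and 0.341 ± 0.366 CPM in day 4 controls. With LOC119730943 went LOC119727687, at 0.094 ± 0.133 CPM after blastula-to-day-4 treatment and 44.8 ± 8.31 CPM in day 4 controls, and LOC119730902, at 0.047 ± 0.0665 and 59 ± 10.2 CPM (adjusted p = 8.4e-06 and 3.9e-09, edgeR). Their log2 differences were -8.71 and -9.97, or -7.81 and -9.13 without treated replicate 1. LOC119733761 ran the other way. It had 44 and 38.1 CPM after blastula-to-day-4 treatment, 10.6 and 13.6 CPM after gastrula-to-day-4 treatment and 0.225 and 0 CPM in recovery, against 0.246 and 0.343 CPM in day 4 controls. Its log2 difference after blastula-to-day-4 treatment was 7.08 ± 0.63 (adjusted p = 4.2e-09, edgeR). At day 2 it had 9.79 and 10.8 CPM after treatment and 0 and 0.282 CPM in controls, 76.9-fold higher (counting interval 26 to 376); the fitted log2 difference was 6.16 (adjusted p = 3.4e-07, edgeR), or 5.14 without control replicate 1, and control replicate 2 held all 3 control counts. LOC119741241 was highest after blastula-to-day-2 treatment, at 54.2 and 68.3 CPM against 1.69 and 0 CPM in day 2 controls, a log2 difference of 6.11 ± 0.7 (adjusted p = 1.3e-06, edgeR), or 5.17 without day 2 control replicate 2; day 2 control replicate 1 held all 20 of its control counts. At day 4 it had 11.5 and 11.1 CPM after treatment from blastula, 2.27 and 1.58 CPM after treatment from gastrula and 0.45 and 0.469 CPM in recovery, against 0.164 and 1.03 CPM in controls. The log2 difference from day 4 controls was 4.24 ± 0.71 after treatment from blastula (adjusted p = 7.4e-05, edgeR), or 3.46 and 6.02 without day 4 control replicates 1 and 2. After treatment from gastrula it was 1.69 ± 0.79 and did not pass (adjusted p = 0.092, edgeR). A shared name therefore did not go with a shared response in this family.

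**Figure D3:**
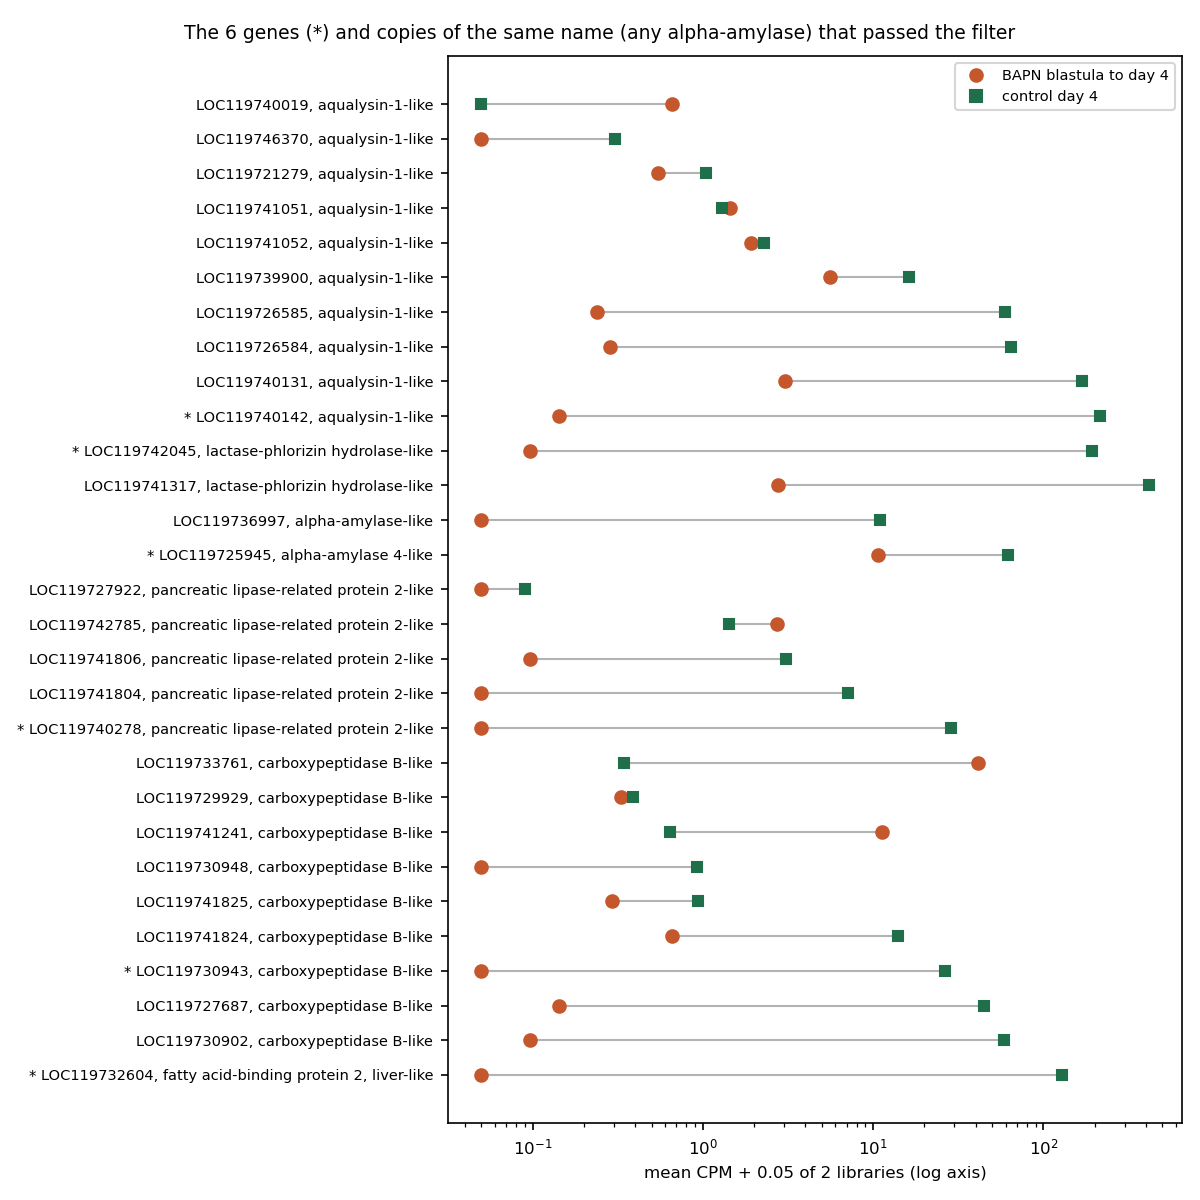
Mean CPM plus 0.05 of 2 libraries on a log axis, after blastula-to-day-4 treatment (circles) and in day 4 controls (squares), for the 6 genes (asterisks) and the copies that passed the filter. All 6 genes and most copies lie lower after treatment, while the carboxypeptidase B-like genes LOC119733761 (41 and 0.294 CPM) and LOC119741241 (11.3 and 0.596 CPM) lie higher. The lipase copy LOC119742785 (2.67 and 1.38 CPM) and the aqualysin-1-like copies LOC119740019 (0.605 and 0 CPM) and LOC119741051 (1.39 and 1.25 CPM) also lie higher.

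Over the 16 libraries the log2 levels of the 6 genes were most alike for aqualysin-1-like and carboxypeptidase B-like (Pearson r = 0.971) and for lactase-phlorizin hydrolase-like and fatty acid-binding protein 2-like (r = 0.953). They were least alike for lactase-phlorizin hydrolase-like and pancreatic lipase-related protein 2-like (r = 0.535). The genes most like each were sought among 10592 other named genes with a mean log2 CPM of at least 1. Among these, aqualysin-1-like was most like LOC119727331 (beta-2 adrenergic receptor-like, r = 0.947), LOC119743600 (alkaline phosphatase-like, r = 0.941) and LOC119725639 (MAM and LDL-receptor class A domain-containing protein 1-like, r = 0.939). Carboxypeptidase B-like was most like LOC119729108 (CYFIP-related Rac1 interactor B-like, r = 0.949), LOC119727331 (r = 0.942) and LOC119731894 (5-phosphohydroxy-L-lysine phospho-lyase-like, r = 0.938). LOC119731894 also led for the lipase (r = 0.931), before LOC119741857 (circularly permutated Ras protein 1-like, r = 0.897) and LOC119746131 (solute carrier family 49 member 4 homolog, r = 0.895). For alpha-amylase 4-like the nearest were LOC119724597 (solute carrier family 12 member 8-like, r = 0.955), LOC119743600 (r = 0.947) and LOC119740612 (synaptotagmin-1-like, r = 0.942). Lactase-phlorizin hydrolase-like came closest to LOC119729663 (guanidinoacetate N-methyltransferase A-like, r = 0.984), LOC119727501 (lysosome membrane protein 2-like, r = 0.98) and LOC119744460 (acyl-CoA-binding protein-like, r = 0.979). Fatty acid-binding protein 2-like came closest to LOC119721348 (rho GDP-dissociation inhibitor 1-like, r = 0.987), LOC119724507 (sodium-dependent phosphate transporter 2-like, r = 0.978) and LOC119726545 (transketolase-like, r = 0.972). Copies of lower mean were left out of this ranking. Of these, LOC119730948 had r = 0.985 with carboxypeptidase B-like, LOC119726584 r = 0.941 with aqualysin-1-like and LOC119741804 r = 0.921 with the lipase. Each of these values was above that of the third gene named for the same member. LOC119730948 had only 21 counts in all, every one in day 4 controls, so its value rests on that group alone. All of these values describe 16 libraries that share their 8 groups, and for the proteases and the lipase most libraries sit at the floor.

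Other genes named for digestion and uptake were counted from 4 lists of product names: digestive proteases, carbohydrate digestion, lipid digestion, and lipid binding and nutrient uptake. They hold 155 genes besides the 6, of which 95 passed the filter. The 95 include the copies described above. These are 9 of aqualysin-1-like, 8 of carboxypeptidase B-like, 4 of the lipase, 1 of alpha-amylase and 1 of lactase-phlorizin hydrolase-like. The shares were not counted without them. The names are broad, and some of the listed genes, such as lysosomal lipases, also work outside the gut. The lists, like the 6 genes, were chosen with earlier results of these counts known. Their shares against all genes are therefore a description and no independent support. The adjusted p-values of single list genes do not allow for this choice. After blastula-to-day-4 treatment 48 of the 95 fell and 12 rose, which is 63.2% called against 51.7% of all genes tested (27.3% lower and 24.4% higher); the median log2 difference was -2.47, or -2.31 with genes at 0 set to their bounds, against -0.1 over all genes. Carbohydrate digestion had 8 of 12 lower and 1 higher, lipid digestion 15 of 25 lower and 3 higher, digestive proteases 11 of 28 lower and 3 higher, and lipid binding and uptake 14 of 30 lower and 5 higher. LOC119745545, a sucrase-isomaltase-like gene whose namesake cuts sucrose and short starch chains, averaged 0.948 ± 0.942 CPM after treatment and 137 ± 4.24 CPM in controls (SD, n = 2 each), a log2 difference of -7.19 ± 0.44 (adjusted p = 4.3e-11, edgeR). LOC119727467, a sodium/glucose cotransporter 4-like gene of the family that takes sugars into cells, averaged 0.235 ± 0.332 and 47.7 ± 0.236 CPM, a log2 difference of -7.56 ± 0.51 (adjusted p = 4.9e-11, edgeR). LOC119722785, a phospholipase A2 AP-PLA2-I-like gene, averaged 13.1 ± 11.3 and 535 ± 43.7 CPM, a log2 difference of -5.33 ± 0.46 (adjusted p = 3.2e-06, edgeR). LOC119723324 (chitotriosidase-1-like, a chitin-cutting enzyme) fell by 4.71 on the log2 scale. Without treated replicate 1 and without treated replicate 2, the log2 difference was -8.86 and -6.4 for LOC119745545, -6.62 and -12.18 for LOC119727467, and -4.64 and -6.7 for LOC119722785.

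After gastrula-to-day-4 treatment 44 of the 95 fell and 12 rose, 58.9% against 46.1% of all genes (24.2% lower and 21.9% higher), with a median of -1.26 against -0.08. LOC119741317 had a log2 difference of -6.32 ± 0.5 (-5.58 and -8.05 without treated replicates 1 and 2), LOC119745545 one of -5.26 ± 0.37 and LOC119722785 one of -2.82 ± 0.4, all at adjusted p-values of 0.00018 or less by edgeR. After gastrula-to-day-3 treatment 22 fell and 12 rose, 35.8% against 32.2% of all genes (15.1% lower and 17.1% higher), with a median of -0.22 against -0.03. LOC119741317 (-4.08 ± 0.46) and LOC119727467 (-3.74 ± 0.36, or -4.38 without treated replicate 2) fell, while LOC119732124, a lysosomal acid lipase/cholesteryl ester hydrolase-like gene, rose by 1.19 ± 0.13. After blastula-to-day-2 treatment 21 fell and 19 rose, 42.1% against 41.5% of all genes (19.7% lower and 21.8% higher), a share near the background. Within it LOC119723475, another sucrase-isomaltase-like gene, averaged 1.34 ± 0.752 CPM after treatment and 30.6 ± 10.3 CPM in controls, a log2 difference of -4.46 ± 0.27 (adjusted p = 1.7e-11, edgeR), or -5.23 without treated replicate 1. LOC119723130, a phospholipase A2 AP-PLA2-I-like gene, averaged 0.272 ± 0.0978 and 36.5 ± 2.26 CPM, a log2 difference of -6.99 ± 0.43 (adjusted p = 4.7e-11, edgeR). Among those that rose, LOC119731160, a solute carrier family 15 member 4-like gene, had 4.96 ± 2.14 CPM after treatment and no count in controls. It was at least 38.1-fold higher (adjusted p = 2.3e-06, edgeR). LOC119732135, a chymotrypsin A-like gene, rose by 3.4 ± 0.64 (adjusted p = 0.00018, edgeR), and the carboxypeptidase B-like genes LOC119733761 and LOC119741241 rose as given above. The same lysosomal lipase gene, LOC119732124, rose by 1.62 ± 0.13 (adjusted p = 1.2e-09, edgeR).

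In recovery 28 of the 95 were lower than in day 4 controls and 1 was higher, 30.5% against 15.9% of all genes (8.65% lower and 7.27% higher), with a median of -1.23 against -0.01. This count is sensitive to single libraries: it was 19 and 14 without day 4 control replicates 1 and 2, 18 and 13 without recovery replicates 1 and 2, and 49 with the 4 libraries of the comparison fitted alone. LOC119745545 averaged 30.3 ± 3.95 CPM in recovery and 137 ± 4.24 CPM in day 4 controls, a log2 difference of -2.18 ± 0.31 (adjusted p = 3.6e-05, edgeR). LOC119737714, a heart-type fatty acid-binding protein-like gene, averaged 61.5 ± 3.27 and 257 ± 51 CPM, a log2 difference of -2.06 ± 0.25 (adjusted p = 2.4e-05, edgeR). Set against blastula-to-day-4 treatment, 38 were higher in recovery and 16 lower, 56.8% against 48.6% of all genes (25.3% higher and 23.3% lower), with a median of 1.1 against 0.12. LOC119727467 was at 39.9 ± 5.78 CPM in recovery and 0.235 ± 0.332 CPM after blastula-to-day-4 treatment, a log2 difference of 7.3 ± 0.51 (adjusted p = 9.2e-11, edgeR), or 6.37 and 11.92 without blastula-to-day-4 replicates 1 and 2. LOC119733761 fell to 0.113 ± 0.159 CPM in recovery, with all of its recovery counts in replicate 1, against 41 ± 4.17 CPM after blastula-to-day-4 treatment.

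In untreated larvae 23 of the 95 were higher at day 3 than at day 2 and 2 were lower, 26.3% against 16.4% of all genes (9.86% higher and 6.55% lower). Without day 2 control replicate 2, or without day 3 control replicate 2, 15 were called. An example is LOC119740131, with 49.7 ± 2.44 CPM at day 3 and 2.93 ± 1.22 CPM at day 2, a log2 difference of 4.07 ± 0.43 (adjusted p = 1.4e-05, edgeR). Between day 3 and day 4, 25 were higher at day 4 and 1 was lower, 27.4% against 13.7% of all genes (7.95% higher and 5.79% lower). Here 12 and 11 were called without day 3 control replicates 1 and 2, 16 without day 4 control replicate 2, and 52 with only the 4 libraries of the comparison. LOC119745545 rose by 2.35 ± 0.31 (adjusted p = 2.2e-05, edgeR) and LOC119734165, a sodium/glucose cotransporter 1-like gene, by 1.44 ± 0.19 (adjusted p = 2.2e-05, edgeR).

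**Figure D4:**
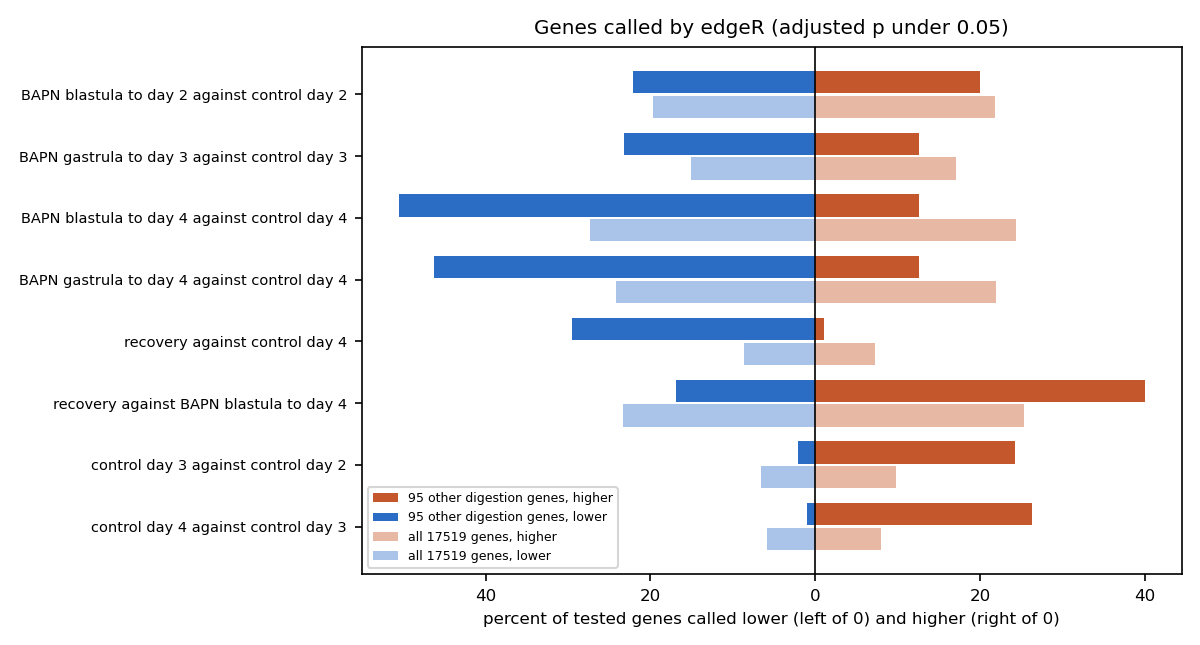
Percent of genes called lower (left of 0) and higher (right of 0) by edgeR in each comparison, for the 95 other digestion and uptake genes (dark bars) and for all 17519 genes tested (pale bars). The listed genes stand furthest from all genes on the lower side at day 4, at 50.5% against 27.3% after blastula-to-day-4 treatment and 29.5% against 8.65% in recovery, and near all genes at day 2, at 22.1% against 19.7%.

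Genes named for regulators of gut formation moved in both directions. They too were chosen with earlier results of these counts known, so their shares are a description. Of 11 genes named for such factors 10 were tested, and after blastula-to-day-4 treatment 6 were higher and 2 lower than in day 4 controls, 80% against 51.7% of all genes called. LOC119739356 (hepatocyte nuclear factor 3-gamma-like, a forkhead factor) averaged 8.85 ± 3.6 CPM after treatment and 0.207 ± 0.171 CPM in controls (SD, n = 2 each), a log2 difference of 5.33 ± 0.64 (adjusted p = 3.7e-07, edgeR), or 6.54 and 4.71 without day 4 control replicates 1 and 2. LOC119726590 (GATA-binding factor 2-like), whose GATA class is known in vertebrates chiefly from blood, averaged 20.9 ± 1.66 and 1.46 ± 0.012 CPM, a log2 difference of 3.83 ± 0.32. The pair that fell were LOC119719588 (pancreas transcription factor 1 subunit alpha-like) and LOC119726019 (hepatocyte nuclear factor 6-like), named for factors that in vertebrates act in pancreas and liver. Where in the larva these regulators are expressed, in the gut or elsewhere, was not measured. LOC119719588 averaged 2.52 ± 2.28 CPM after treatment and 41.9 ± 2.97 CPM in controls, a log2 difference of -4.03 ± 0.38 (adjusted p = 6.9e-08, edgeR), or -3.32 and -5.51 without treated replicates 1 and 2. LOC119726019 averaged 20.3 ± 3.55 and 128 ± 12.6 CPM, a log2 difference of -2.65 ± 0.26 (adjusted p = 1.4e-07, edgeR). LOC119740965 (forkhead box protein A2-like), chosen for mention after its values were seen because forkhead A factors mark endoderm in many animals, averaged 840 ± 73.5 CPM after treatment and 346 ± 8.25 CPM in day 4 controls, a log2 difference of 1.28 ± 0.12 (adjusted p = 9.9e-09, edgeR).

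In the day 2 window most regulators were lower. After blastula-to-day-2 treatment 7 of the 10 were lower than in day 2 controls and 2 higher, 90% against 41.5% of all genes, led by LOC119730701 (hepatocyte nuclear factor 1-alpha-like), with a log2 difference of -2.92 ± 0.53 (adjusted p = 0.00012, edgeR; -4.57 and -2.26 without treated replicates 1 and 2). After gastrula-to-day-3 treatment 5 were higher and 2 lower, 70% against 32.2% of all genes, and after gastrula-to-day-4 treatment the counts were again 5 and 2, 70% against 46.1%. In recovery 4 were higher than in day 4 controls and 0 lower, 40% against 15.9% of all genes. LOC119719588 was at 65.1 ± 7.88 CPM in recovery and 41.9 ± 2.97 CPM in day 4 controls, a log2 difference of 0.63 ± 0.3 that did not pass (adjusted p = 0.18, edgeR), and LOC119726019 was at 164 ± 2.1 and 128 ± 12.6 CPM (0.36 ± 0.23, adjusted p = 0.36, edgeR). Both were thus at or above the day 4 control level in recovery, while the proteases and the lipase were under 1% of theirs.

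**Figure D5:**
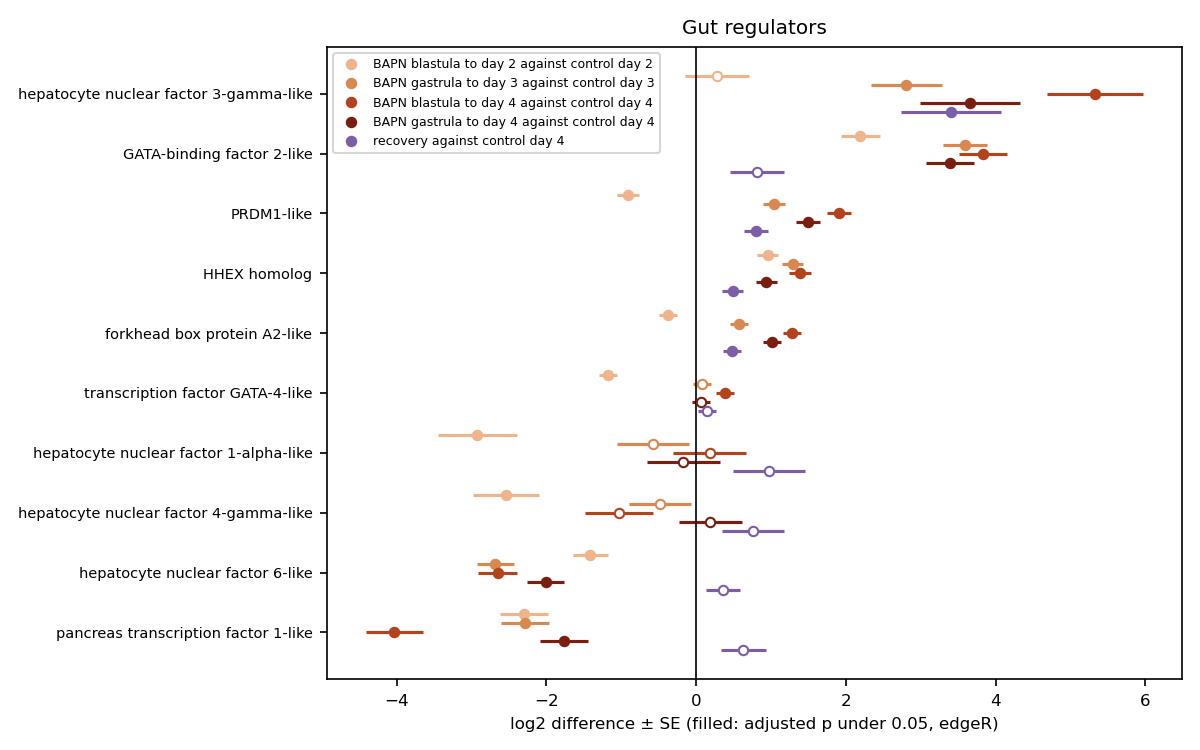
Log2 difference ± SE (n = 2 libraries each) of 10 genes named for gut regulators in 5 comparisons, with filled points for an adjusted p under 0.05 by edgeR. Pancreas transcription factor 1-like and hepatocyte nuclear factor 6-like lie left of 0 in the 4 groups collected in BAPN and right of 0 in recovery, where neither passed the test.

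Genes of other tissues differed in the same libraries. Summed CPM of 26 muscle genes at day 4 was 1780 to 1800 after blastula-to-day-4 treatment, 1780 to 1820 after gastrula-to-day-4 treatment and 3520 to 3710 in recovery, against 4440 to 4630 in day 4 controls. For 99 genes of cilia, 98 of them detected, it was 3520 to 4090, 4420 to 4840 and 7410 to 7650, against 8390 to 8600. For 27 neuronal genes it was 739 to 788, 882 to 912 and 1200 to 1250, against 1450 to 1490. All 26 muscle and all 27 neuronal genes were detected in at least 1 library. Many of the 99 cilia genes carry the same name, intraflagellar transport protein 56-like. The part of such shifts in tissue makeup in the levels of the 6 genes was not tested. The other digestion genes, summed at day 4 in the same order of groups, differed by list. The 47 digestive protease genes summed to 113 to 159, 97.1 to 107 and 84.5 to 122 CPM, against 556 to 682 CPM in day 4 controls. The 19 genes of carbohydrate digestion summed to 456 to 570, 614 to 698 and 846 to 859 CPM, against 1240 to 1350 CPM. The 51 genes of lipid digestion summed to 364 to 393, 412 to 415 and 325 to 359 CPM, against 910 to 1000 CPM. The sum of the 38 genes of lipid binding and uptake ran the other way in the groups kept in BAPN, at 1650 to 1890 and 1540 to 1550 CPM, and was 672 to 686 CPM in recovery, against 1050 to 1150 CPM in day 4 controls. At day 2 the sums of all 4 lists were higher in both treated libraries than in both controls. At day 3 carbohydrate digestion was higher after treatment, at 1240 and 1150 CPM against 833 and 794 CPM, as was lipid binding and uptake. Digestive proteases were lower at day 3, at 108 and 92.4 CPM against 143 and 141 CPM, and lipid digestion overlapped.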

How the data were processed

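The deposited table holds raw counts, whole numbers for 27818 genes in 16 libraries, with gene lengths in bases, which served for CPM per kb. Per the labels, libraries were stranded, paired-end and made from polyadenylated RNA. Aligner, counter and build: not given in the sources used here. The positions of all 27818 genes equal those of the RefSeq table of Pmin_3.0, matched by gene ID, from which domain names were also read.

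The filterByExpr function of edgeR, given the 8 groups (minimum count 10, minimum total 15), left 17519 genes and removed 10299. TMM scaling and 1 robust quasi-likelihood model of all 16 libraries (8 residual degrees of freedom) followed, with Benjamini-Hochberg adjustment over all genes and calls at an adjusted p under 0.05. The SE is the log2 difference divided by the square root of F. A group without counts was set to 3 counts over the group for a lower bound ("at least"); with 1 to 3 counts in a group, an exact 95% interval of the ratio is given. Both cover counting error only, and reads without molecular identifiers are not independent molecules. P-values measure the spread between these libraries, which may be technical.

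The 6 genes, the 4 lists of digestion genes, the regulators and the marker lists were chosen with earlier results of these data known; 45 genes that the list words took by mistake were removed by name. Named list genes are those with the largest change, up to 3 per list and comparison, among called genes whose groups do not overlap and whose mean log2 CPM reaches 1; genes named as copies were named for their product. Like genes, taken from those with a product name and a mean log2 CPM of at least 1, were ranked by Pearson's r of log2 CPM with a prior count of 2. Alternatives were total-count scaling, no filter, DESeq2, each comparison's libraries alone, a replicate block of the labelled pairs and leaving out each library. For 6 treated libraries the labels name a control; the deviations of these pairs correlated at -0.0065 to 0.023, so they were not taken as paired. Fits used edgeR 4.0.16 (with limma 3.58.1) and DESeq2 1.42.0 in R 4.3.3. No sequences are shown, since none were analysed here.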

Additional observations from a re-analysis of the deposited data

Results flagged for a closer look

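Among the 6 genes, their copies, the regulators and the named digestion genes, 15 differed from controls in opposite directions in 2 treatment windows, with all treated libraries on opposite sides of their controls. The windows of each pair differ in age and also in the start or length of treatment. The part of each was not tested, nor were the differences between windows. Below, day 2 stands for blastula-to-day-2 treatment and day 3 for gastrula-to-day-3 treatment. In the 4 groups collected in BAPN, 32% to 35.4% of all genes were higher than controls without overlap, and 32% to 41.5% were lower. The share of all genes that turned between 2 windows was not counted, so the 15 are only a list. Alpha-amylase 4-like (LOC119725945) was higher after blastula-to-day-2 treatment (log2 difference 0.42, or 0.17 with total-count scaling) and lower after gastrula-to-day-3 treatment (-0.8). Pancreatic lipase-related protein 2-like (LOC119740278) was at least 3.47-fold higher after gastrula-to-day-3 treatment, from 8 counts against 0, and at least 196-fold lower after blastula-to-day-4 treatment. LOC119732135 (chymotrypsin A-like, a serine protease name) had 4.09 and 4.55 CPM after blastula-to-day-2 treatment and 0.506 and 0.282 CPM in day 2 controls (3.4 on the log2 scale), but 5.95 and 3.85 CPM after blastula-to-day-4 treatment and 10.6 and 6.85 CPM in day 4 controls (-0.84). LOC119726857 (acidic phospholipase A2 PA4-like) had 1.87 and 2.33 CPM after blastula-to-day-2 treatment and 1.43 and 0 CPM in day 2 controls (1.5), and 2.47 and 2.09 CPM after gastrula-to-day-3 treatment and 3.53 and 2.48 CPM in day 3 controls (-0.4). Of the aqualysin-1-like copies, LOC119739900 was higher after gastrula-to-day-3 treatment (0.43) and lower after blastula-to-day-2 treatment (-2.07), LOC119726585 was higher at day 2 (1.63) and lower at day 3 (-2), and LOC119726584 was 25-fold higher at day 2 (counting interval 4.07 to 1030, from 24 counts against 1) and lower at day 3 (-3.04). LOC119721279 was higher at day 3 (1.88) and 11.1-fold lower at day 2, from 2 counts against 23. Of the lipase copies, LOC119742785 was higher at day 2 (0.48) and lower at day 3 (-0.45), and LOC119741806 was higher at day 2 (1.15) and 61.1-fold lower after blastula-to-day-4 treatment, from 1 count against 71. Of the carboxypeptidase B-like copies, LOC119741824 was 3.91-fold higher at day 3 (counting interval 0.975 to 22.4, from 9 counts against 3) and lower after blastula-to-day-4 treatment (-4.53), and LOC119741825 was at least 19.4-fold higher at day 2 and lower after blastula-to-day-4 treatment (-1.82). Among regulators, LOC119724911 (transcription factor GATA-4-like) was higher after blastula-to-day-4 treatment (0.39) and lower at day 2 (-1.17), and LOC119740965 (0.57 and -0.38) and LOC119745514 (PR domain zinc finger protein 1-like, 1.04 and -0.91) were higher at day 3 and lower at day 2.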

How the results depend on the processing

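Under all alternatives run, the 6 genes kept the sign of their difference from day 4 controls in both groups kept in BAPN to day 4 and in recovery, and all 6 stayed higher in day 4 than in day 3 controls. The sign turned for aqualysin-1-like (LOC119740142) between recovery and blastula-to-day-4 treatment without recovery replicate 1, which held all of its recovery counts (-3.34, against 2.85; leaving out 1 library gave -3.34 to 6.23). For dose the uncalled value of fatty acid-binding protein 2-like (LOC119732604) turned to 0.32 with DESeq2 and to 1.41 and 1.48 without recovery replicates 1 and 2, against -0.45 (leaving out 1 library gave -0.89 to 1.48); no alternative called any of the 6 for dose. Of the 95 digestion genes, leaving out 1 library gave 15 to 25 calls between day 3 and day 2 controls, 11 to 18 between day 4 and day 3 controls and 13 to 19 between recovery and day 4 controls, and fitting only the libraries of the comparison gave 52 and 49 for the last pair; the cause of the higher counts was not tested, and fewer libraries leave fewer degrees of freedom. The other counts stayed within 1.5 times under every alternative. The replicate block of the labelled pairs gave 36, 31 and 55 calls in the day 2, day 3 and blastula-to-day-4 windows, against 40, 34 and 60; for the other comparisons no pairs are labelled. Total-count scaling moved the median of all genes to -0.26, -0.25, -0.3 and -0.18 in the 4 groups collected in BAPN and to 0.43 between recovery and blastula-to-day-4 treatment. Under it 12 digestion genes were called higher and 50 lower after blastula-to-day-4 treatment, and 12 and 46 after gastrula-to-day-4 treatment; their median less that of all genes was -2.36 and -1.17, against -2.37 and -1.18 with TMM scaling. Of 190 differences of named or copied genes, 149 kept their call under every alternative, 41 lost it under at least 1 and 0 turned sign. Depth limits the 5 genes near 0: below about 3 counts a group, neither a residual level nor a dose effect could be detected.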
